A study of Mus musculus with 15 samples.

Results

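MHC class II molecules present peptides from ingested proteins to CD4+ T cells. The 10 genes described here encode this machinery in the mouse, and they were taken by name (H2-Aa, H2-Ab1, H2-Eb1, H2-DMa, H2-DMb1, H2-DMb2, H2-Oa, H2-Ob, Cd74 and Ciita) from the 54532 genes in the liver and lung tables. All 10 were listed in both tissues. Livers came from 4 mice of the control diet group (CS) and 5 mice of the phytosterols diet group (PS), and lungs from 3 CS and 3 PS mice, 1 library per mouse and tissue. The lung mice were 6 of the 9 liver mice. All were wild type C57BL/6J males, an inbred laboratory strain. The PS feed contained 2% phytosterols, which are plant sterols that resemble cholesterol, and the CS feed was the same formula without them. By the labels the mice were 28 weeks old, although the times in the study's methods add up to more. The question was whether the diet changed the RNA level of these genes in either tissue.

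The alpha and beta chains of the class II molecule pair in the endoplasmic reticulum with the invariant chain (Cd74), which blocks the groove and guides the complex to endosomes. There the invariant chain is cut down to a short remnant called CLIP, and H2-DM removes CLIP and lets peptides bind, while H2-O restrains H2-DM. The genes are transcribed mainly in B cells, dendritic cells and macrophages. The transactivator CIITA switches them on by docking on factors that bind short promoter elements called the X box and the Y box.

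Of these genes, 8 lie together on chromosome 17, in 34092340 to 34316199 of GRCm38, in the order H2-Oa, H2-DMa, H2-DMb2, H2-DMb1, H2-Ob, H2-Ab1, H2-Aa and H2-Eb1. Ciita is at 10480059 to 10528418 of chromosome 16, and Cd74 lies on another chromosome. The 2 DM beta genes are close copies. Of the runs of 100 bases in H2-DMb1 transcripts, 11.3% also occur in H2-DMb2, so a share of their reads may not be assignable to a single gene, and the other 8 genes share no such run. In the GENCODE annotation, exons of H2-Oa overlap BC051537 on the opposite strand by 321 bases, and those of Ciita overlap Dexi by 329 bases. Exons of H2-DMa overlap Brd2 there by 360 bases. As deposited, though, H2-DMa starts at 34135182, past the end of Brd2 at 34122634, so those 2 genes do not overlap as counted. Whether the counting used strand is not given in the sources used here, so reads over the H2-Oa and Ciita overlaps may belong to either gene.

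The promoters are shown because CIITA acts through them. RefSeq promoter windows on GRCm38.p6, from 250 bases before to 50 bases after the transcript start, were held for 7 of the genes, in 8 windows. The letters TGATTGG (the Y box, both strands searched) occurred in 7.82% of all 32851 windows of that length. The letters AAC (the core of the X box) followed by TGATTGG with 20 to 30 bases between occurred in 1.05% of windows and in the windows of 6 of the 7 genes, with 23 to 26 bases between. These letters and the spacing were chosen after the promoters had been looked at. The 2 windows of H2-DMa held neither TGATTGG nor the pair, but both lie before the H2-DMa start given in the files, and that start was not searched. The following 4 stretches overlap no annotated exon, and the capitals mark AAC and TGATTGG, read 5′ to 3′ along the gene.
H2-Aa, chr17:34287862-34287912, minus strand: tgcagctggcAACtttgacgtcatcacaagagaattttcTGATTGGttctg
H2-Eb1, chr17:34305768-34305817, plus strand: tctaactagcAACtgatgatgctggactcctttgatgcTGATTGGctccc
H2-DMb2, chr17:34145118-34145168, plus strand: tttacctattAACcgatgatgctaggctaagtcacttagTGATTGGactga
H2-Ob, chr17:34238810-34238857, plus strand: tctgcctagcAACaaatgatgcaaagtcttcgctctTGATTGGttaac
The H2-DMb2 stretch lies inside the gene as the files bound it, before a RefSeq transcript that starts inside it, and the other 3 lie just outside the bounds of their genes.

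**Figure D1:**
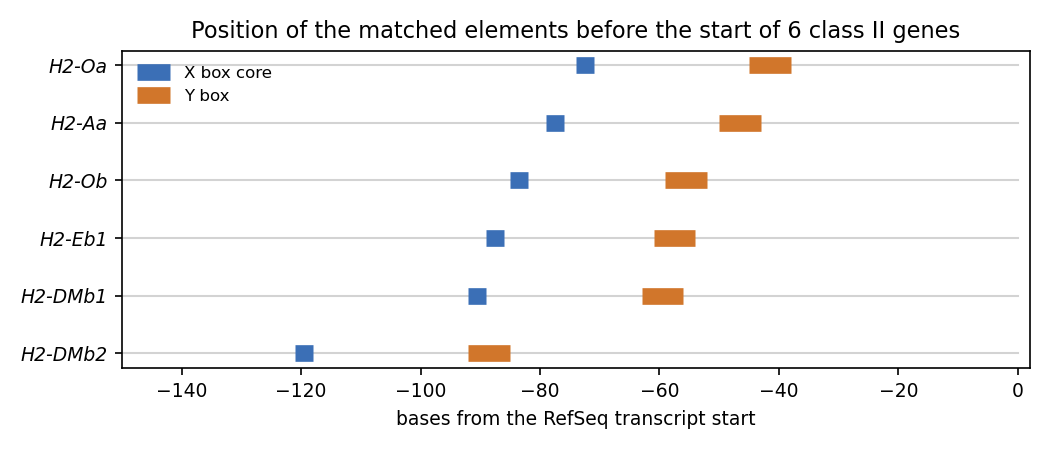
Position of the X box core (blue) and the Y box (orange) in bases before the RefSeq transcript start, for the 6 genes whose window holds both. The Y box starts between 45 bases (H2-Oa) and 92 bases (H2-DMb2) before the start of the transcript, with 23 to 26 bases between the X box core and the Y box.

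Libraries held 14410117 to 17625179 gene counts in the liver and 17934930 to 19396057 in the lung. Liver CS replicate 2 stood apart from the other CS livers, with correlations of log2 CPM across genes of 0.897 to 0.927, against 0.966 to 0.983 among the others. Tissue identity matched the labels. The summed FPKM of 8 hepatocyte genes was 39184.3 to 63181.4 in livers and at most 53.0 in lungs, and that of 7 lung genes was 103384.6 or more in lungs and at most 39.2 in livers. FPKM corrects the read count for gene length and for the library, and was set within each tissue's table.

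All 10 genes were far higher in the lung than in the liver. Together they took 0.28% to 0.39% of the gene counts in lungs and 0.0107% to 0.033% in livers. The lowest lung was above the highest liver for 10 of 10 genes in FPKM. In edgeR's quasi-likelihood test over all 15 libraries, 10 of 10 passed an adjusted p under 0.05 as higher in the lung, 2 of them (H2-Oa and H2-Ob) with too few liver counts to pass a filter on the livers alone, where 42.3% of the 17696 genes tested did so and 76.7% passed in either direction. Their median log2 difference was 3.03, against 0.17 over all genes. This difference is relative to how libraries are scaled. With library totals in place of TMM, the normalization used, the medians were 4.38 and 1.55, so that the gap between them stayed near 2.83 on the log2 scale.

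Among the 8 genes that passed the liver filter, the log2 differences ran from 2.66 for H2-Ab1, the beta chain of the I-A molecule (SE 0.24, adjusted p = 2.45e-08), to 3.38 for H2-DMb2 (SE 0.25). The second DM beta chain, H2-DMb1, differed by 3.32 (SE 0.23), Ciita by 3.06 (SE 0.28), H2-Aa by 2.99 (SE 0.25), H2-Eb1 by 2.97 (SE 0.24), H2-DMa by 2.95 (SE 0.23) and Cd74 by 2.88 (SE 0.25). The estimates of the H2-O chains, 4.02 for H2-Ob (SE 0.39) and 3.30 for H2-Oa (SE 0.51), rest on 1 to 38 and 0 to 7 counts per liver, and both genes entered the fit through the lungs. Differences among these genes were not tested. Fewer cells that carry class II and less class II RNA per cell cannot be told apart in bulk tissue. B cell markers moved with the tissue as well, since the summed FPKM of 13 of them was 1.02 to 3.33 in livers and 56.4 to 133.9 in lungs. Dendritic cell markers (12 genes) summed to 2.81 to 9.44 and 56.3 to 71.7. The 12 markers of Kupffer cells and other macrophages summed to 62.4 to 261.3 in livers and 152.1 to 224.2 in lungs, and 9 alveolar macrophage markers to 8.9 to 58.3 and 333.5 to 472.9. The part of these cells in the tissue difference was not tested.

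Within each tissue the levels followed nearly the same order. In the lung, Cd74 was highest with a mean FPKM of 983.2 ± 189.8 (SD, n = 6), followed by H2-Eb1 with 490.2 ± 113.6, H2-Aa with 353.4 ± 98.7 and H2-Ab1 with 322.8 ± 45.2. H2-DMb1 stood at 60.4 ± 14.0 and H2-DMa at 47.8 ± 11.1, then H2-DMb2 at 10.1 ± 2.72, H2-Ob at 7.25 ± 1.16, H2-Oa at 3.19 ± 0.956 and Ciita at 3.15 ± 0.835. The order of the I-A chains differed by diet, since the mean of H2-Ab1 was 345.2 against 303.1 for H2-Aa in CS lungs, and 300.4 against 403.7 in PS lungs. Thus the invariant chain and the peptide-binding chains were most abundant, the DM editors came next, and the O subunits and the transactivator were lowest. In the liver, Cd74 stood at 51.4 ± 22.6 (SD, n = 9), H2-Eb1 at 24 ± 9.87, H2-Ab1 at 19.7 ± 8.78 and H2-Aa at 17 ± 7.3. There H2-DMa had 2.38 ± 1.12, H2-DMb1 2.32 ± 1.09, H2-DMb2 0.369 ± 0.137, H2-Ob 0.204 ± 0.248, Ciita 0.144 ± 0.0753 and H2-Oa 0.133 ± 0.130. The last 3 changed places with diet, since H2-Ob had a mean of 0.357 in CS livers, above Ciita (0.176) and H2-Oa (0.0906), and of 0.0816 in PS livers, below H2-Oa (0.167) and Ciita (0.118). The ranges of neighbours in the order overlapped in both tissues, apart from the step down from the peptide-binding chains to the DM genes, that from the larger DM genes to H2-DMb2, and, in the lung, that from Cd74 to H2-Eb1 and that from H2-Ob to H2-Oa.

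**Figure D2:**
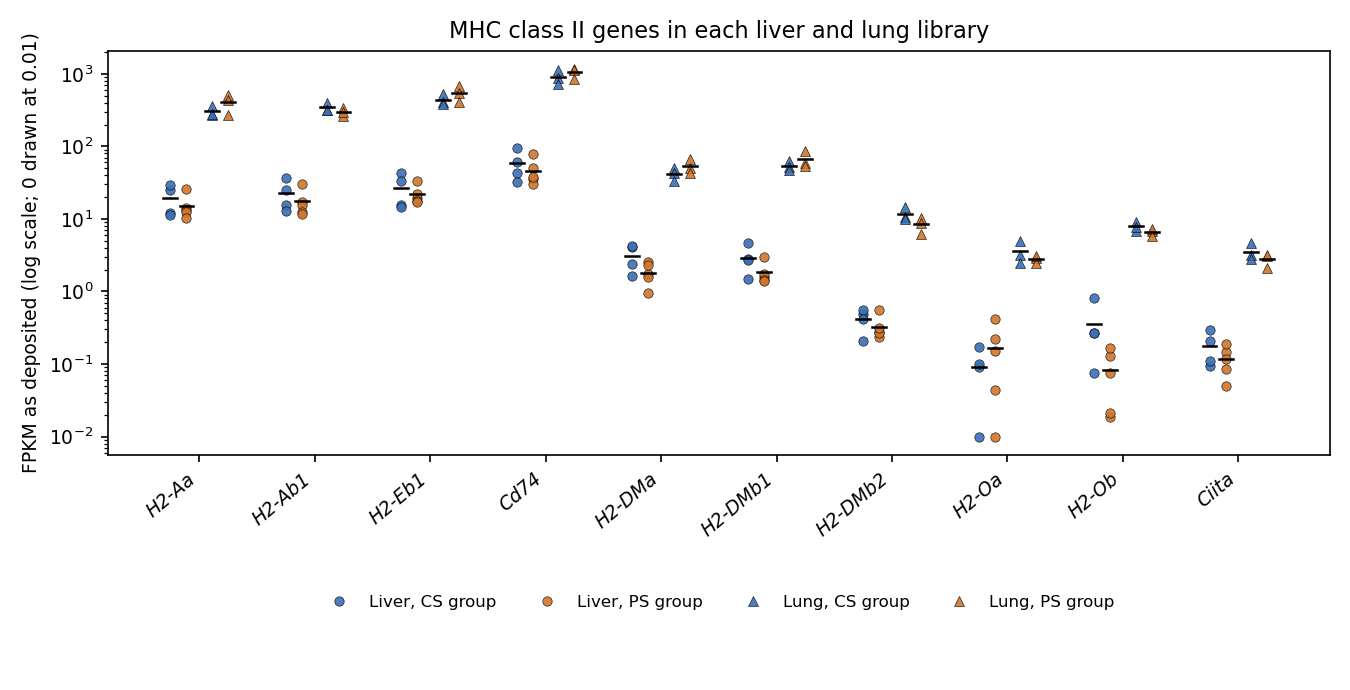
Deposited FPKM (log axis, 0 drawn at 0.01) of the 10 genes in each liver (circles) and lung (triangles) library, CS in blue and PS in orange, with the mean of each group as a black bar. Every lung lies above every liver for each gene, while CS and PS libraries overlap for all 10 genes in both tissues.

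Compared with the CS group, none of these genes changed in the PS livers past the test. Of the 8 genes with enough counts to be tested, 0 passed an adjusted p under 0.05 in edgeR (0.00758% of all 13195 genes tested passed) and 0 passed an unadjusted p at most 0.05 (7.55% of all genes). The point estimates were below 0 for 8 of 8, with a median log2 fold change of -0.36 against -0.03 over all genes. DESeq2's Wald test also gave 0 at the adjusted threshold and 1 at the unadjusted one, H2-DMa. The diets overlapped in FPKM for 8 of 8 genes, where 3.65% of all genes had no overlap.

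The peptide-binding chains varied more between livers of one diet than between diets. H2-Aa, the I-A alpha chain, had an FPKM of 25.0, 28.9, 11.9 and 11.2 in CS replicates 1 to 4 and 14.3, 13.3, 12.5, 25.6 and 10.3 in PS replicates 1 to 5. Its partner H2-Ab1 had 36.3, 24.9, 15.7 and 12.9 in CS mice and 17.2, 15.7, 12.4, 30.5 and 11.8 in PS mice. CS replicates 1 and 2 and PS replicate 4 were high for both, and the remaining livers of the 2 groups lay close together. The log2 fold changes were -0.34 for H2-Aa (95% interval -1.09 to 0.41) and -0.36 for H2-Ab1 (-1.11 to 0.40). With each liver left out they ran from -0.61 (without PS replicate 4) to -0.07 (without CS replicate 2) for H2-Aa, and from -0.65 (without PS replicate 4) to -0.03 (without CS replicate 1) for H2-Ab1.

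H2-Eb1 encodes the beta chain of I-E, which C57BL/6 mice do not display because their H2-Ea gene lacks a working promoter. Its FPKM was 42.4, 33.2, 15.4 and 14.8 in the CS livers and 19.7, 22.1, 17.7, 33.5 and 17.2 in the PS livers. Cd74 had 95.5, 61.7, 43.1 and 31.8 in CS mice and 35, 49.8, 30.7, 77.7 and 37.7 in PS mice. The same 3 livers were the highest for H2-Eb1 and Cd74. The log2 fold change was -0.26 for H2-Eb1 (-0.99 to 0.47) and -0.33 for Cd74 (-1.08 to 0.42), and without CS replicate 1 it was 0.05 and 0.01. The remnant of the alpha gene, H2-Ea-ps, was listed at 0 in all 9 livers and had 1 and 6 counts in the lungs where it was found.

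H2-DMa and H2-DMb1 had the lowest point estimates among the genes tested in the liver. H2-DMa, the DM alpha chain, had an FPKM of 4.12, 4.2, 1.63 and 2.39 in CS livers and 0.953, 1.73, 1.60, 2.53 and 2.29 in PS livers. H2-DMb1 had 4.67, 2.78, 1.48 and 2.73 in CS livers and 1.58, 1.76, 1.45, 3.03 and 1.40 in PS livers. CS replicate 1 was again among the highest, and CS replicate 3 lay inside the PS range for both genes. H2-DMa differed by -0.75 on the log2 scale (SE 0.36, 95% interval -1.55 to 0.04, adjusted p = 0.688 in edgeR) and H2-DMb1 by -0.66 (SE 0.36, adjusted p = 0.728 in edgeR). Without CS replicate 3 or without PS replicate 4 both passed the unadjusted threshold, with adjusted p-values up to 0.674 in edgeR. Without CS replicate 1, H2-DMb1 stood at -0.34 and H2-DMa at -0.59. H2-DMb2 was near the limit of detection, with 6 to 15 counts per liver and a log2 fold change of -0.36 (-1.38 to 0.66), which was -0.20 without CS replicate 2 and -0.58 without CS replicate 3.

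Ciita had 6 to 50 counts per liver, and its FPKM was 0.296, 0.206, 0.0936 and 0.110 in CS mice and 0.0492, 0.146, 0.0856, 0.188 and 0.119 in PS mice. Its log2 fold change was -0.57 (95% interval -1.61 to 0.47), and it ran from -0.80 without PS replicate 4 to -0.21 without CS replicate 1. The H2-O genes did not pass the filter on low counts. H2-Oa had 4, 0, 2 and 2 counts in the CS livers and 7, 1, 0, 5 and 3 in the PS livers. H2-Ob had 15, 38, 4 and 13 counts in the CS livers and 3, 1, 7, 9 and 1 in the PS livers, and CS replicate 3 lay among the PS livers. With no filter, H2-Ob differed by -2.06 on the log2 scale (SE 0.75, adjusted p = 0.663 in edgeR), past the unadjusted threshold, and H2-Oa by 0.79 (SE 1.17).

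The liver median rested on few animals. It was -0.20 without CS replicate 1, -0.29 without CS replicate 2, the library that stood apart, -0.54 without CS replicate 4 and -0.63 without PS replicate 4. Without CS replicate 3 it was -0.55 over the same 8 genes, and -0.58 over 9 since H2-Ob then passed the filter, with 0 genes past the adjusted threshold in each case.

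In the lung the 10 genes split evenly and none changed past the test. All 10 were tested, 0 passed an adjusted p under 0.05 in edgeR, where 9.22% of 16717 genes did, and 0 passed an unadjusted p at most 0.05, where 30.1% of all genes did. DESeq2 gave 0 at both thresholds. The estimates were above 0 for 5 genes (H2-Aa, H2-Eb1, Cd74, H2-DMa and H2-DMb1) and below 0 for 5 (H2-Ab1, H2-DMb2, H2-Oa, H2-Ob and Ciita), and the median was -0.01 against 0.01 over all genes. The diets overlapped for 10 of 10 genes in FPKM, where 36.1% of all genes had no overlap.

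H2-Aa had an FPKM of 359.0, 270.6 and 279.7 in CS lungs and 507.8, 430.9 and 272.5 in PS lungs. H2-Ab1 had 399.1, 318.8 and 317.6 in CS lungs and 339.8, 264.7 and 296.8 in PS lungs. PS replicates 1 and 2 were above every CS lung for the alpha chain, and PS replicate 3 lay with the CS lungs, whereas for the beta chain the groups were interleaved. The log2 fold change of H2-Aa was 0.41 (SE 0.24, 95% interval -0.14 to 0.95, adjusted p = 0.284 in edgeR), and that of H2-Ab1 was -0.20 (SE 0.18, -0.60 to 0.19, adjusted p = 0.459 in edgeR). Without PS replicate 3, H2-Aa stood at 0.62, past the unadjusted threshold (adjusted p = 0.0702 in edgeR), and H2-Eb1 passed it too at 0.46. Without PS replicate 1, H2-Aa stood at 0.21.

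H2-Eb1 had 518.7, 409.4 and 383.2 in CS lungs and 683.5, 535.9 and 410.7 in PS lungs, and its log2 fold change was 0.31 (-0.18 to 0.80). Cd74 had 1144.2, 883.5 and 723.8 in CS lungs and 1159.6, 1145.1 and 843.2 in PS lungs, with 0.19 (-0.32 to 0.69). CS replicate 1 was the highest CS lung and PS replicate 3 the lowest PS lung for both. H2-DMa had 50.0, 42.4 and 33.8 in CS lungs and 66.9, 50.2 and 43.4 in PS lungs, with a log2 fold change of 0.34 (-0.11 to 0.79). H2-DMb1 had 63.4, 52.7 and 47.1 in CS lungs and 86.5, 58.9 and 53.8 in PS lungs, with 0.28 (-0.17 to 0.73). PS replicate 1 was the highest lung for both DM chains.

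Among the genes with estimates below 0, H2-DMb2 came nearest to the thresholds. Its FPKM was 14.6, 10.6 and 9.90 in CS lungs and 10.3, 8.74 and 6.23 in PS lungs, so PS replicate 1 alone reached into the CS range. It differed by -0.48 on the log2 scale (SE 0.23, 95% interval -1.0 to 0.05, adjusted p = 0.199 in edgeR). Without PS replicate 1 it stood at -0.65 (adjusted p = 0.0955 in edgeR), and with library totals in place of TMM at -0.56, both past the unadjusted threshold. H2-Oa had 5.03, 3.22 and 2.43 in CS lungs and 2.88, 2.50 and 3.08 in PS lungs. H2-Ob had 9.18, 6.84 and 7.74 in CS lungs and 6.73, 7.30 and 5.73 in PS lungs. Ciita had 4.65, 3.15 and 2.81 in CS lungs and 3.08, 3.14 and 2.09 in PS lungs. CS replicate 1 was the highest lung for all 3 genes, and the other lungs overlapped. Their log2 fold changes were -0.34 for H2-Oa (-1.07 to 0.39), -0.27 for H2-Ob (-0.66 to 0.11) and -0.36 for Ciita (-0.88 to 0.16). Single lungs moved several of the lung estimates by over 1.5 times. Without CS replicate 1, H2-Oa stood at -0.04, Ciita at -0.14, H2-DMb2 at -0.32, H2-Ob at -0.18, H2-Ab1 at -0.12 and Cd74 at 0.35. Without PS replicate 1, H2-Eb1 stood at 0.11, H2-DMa at 0.15, H2-DMb1 at 0.05 and Cd74 at 0.11. Without PS replicate 3, H2-DMb2 stood at -0.31, Ciita at -0.20 and Cd74 at 0.31. Cd74 stood at 0.09 without CS replicate 3, and H2-Ab1 at -0.12 without PS replicate 2. H2-Oa moved to -0.51 without CS replicate 3, and over the lungs left out one at a time all 10 genes kept their direction.

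**Figure D3:**
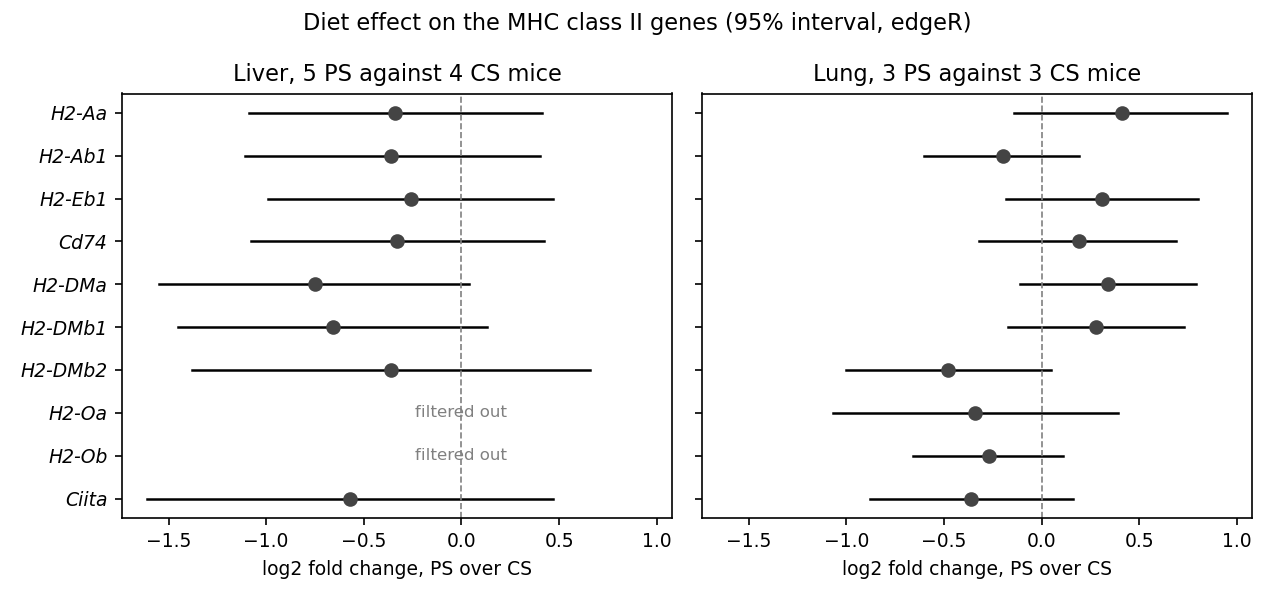
Log2 fold change of PS over CS for each gene with its 95% interval, in the liver (left) and the lung (right), from edgeR. Every interval includes 0. All 8 liver estimates lie below 0, and the lung estimates divide into 5 above and 5 below.

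Ratios within a library compare genes without the scaling between libraries. They were chosen after the values were seen and are given as a description, without a test. H2-Aa over H2-Ab1 in FPKM was 0.900, 0.849 and 0.881 in CS lungs and 1.49, 1.63 and 0.918 in PS lungs. H2-Eb1 over H2-Ab1 was 1.30, 1.28 and 1.21 in CS lungs and 2.01, 2.02 and 1.38 in PS lungs. In both ratios every PS lung was above every CS lung, with PS replicate 3 close to the CS lungs. Of single genes, 36.1% had no overlap between the lung groups, and the share over pairs of genes was not computed. In livers the first ratio ran from 0.689 to 1.16 in CS and from 0.832 to 1.01 in PS mice. The transcripts of H2-Aa hold 46.5% GC and those of H2-Ab1 57.3%. With each library's trend with GC content removed, the lung log2 fold changes were 0.53 and -0.35 (adjusted p = 0.181 and 0.259 in edgeR), and the part of GC content in the ratio was otherwise not tested.

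Among the peptide editors the ratios of the lung groups did not overlap either. H2-DMb2 over H2-DMb1 was 0.229, 0.202 and 0.210 in CS lungs and 0.120, 0.148 and 0.116 in PS lungs. The sum of H2-Oa and H2-Ob over the sum of the 3 DM genes was 0.111, 0.0952 and 0.112 in CS lungs and 0.0587, 0.0832 and 0.0852 in PS lungs. Every PS lung was below every CS lung for both ratios. Of single genes, though, 36.1% had no overlap between the lung groups, and the share over such ratios was not computed. In the liver the ranges overlapped widely, 0.106 to 0.199 in CS against 0.0891 to 0.347 in PS mice for the first and 0.0474 to 0.108 against 0.0168 to 0.159 for the second. Invariant chain over the summed H2-Aa, H2-Ab1 and H2-Eb1 overlapped in the lung too, at 0.738 to 0.896 in CS and 0.757 to 0.930 in PS mice, and so did the sum of the 3 DM genes over the same sum, at 0.0926 to 0.106 and 0.0956 to 0.107.

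**Figure D4:**
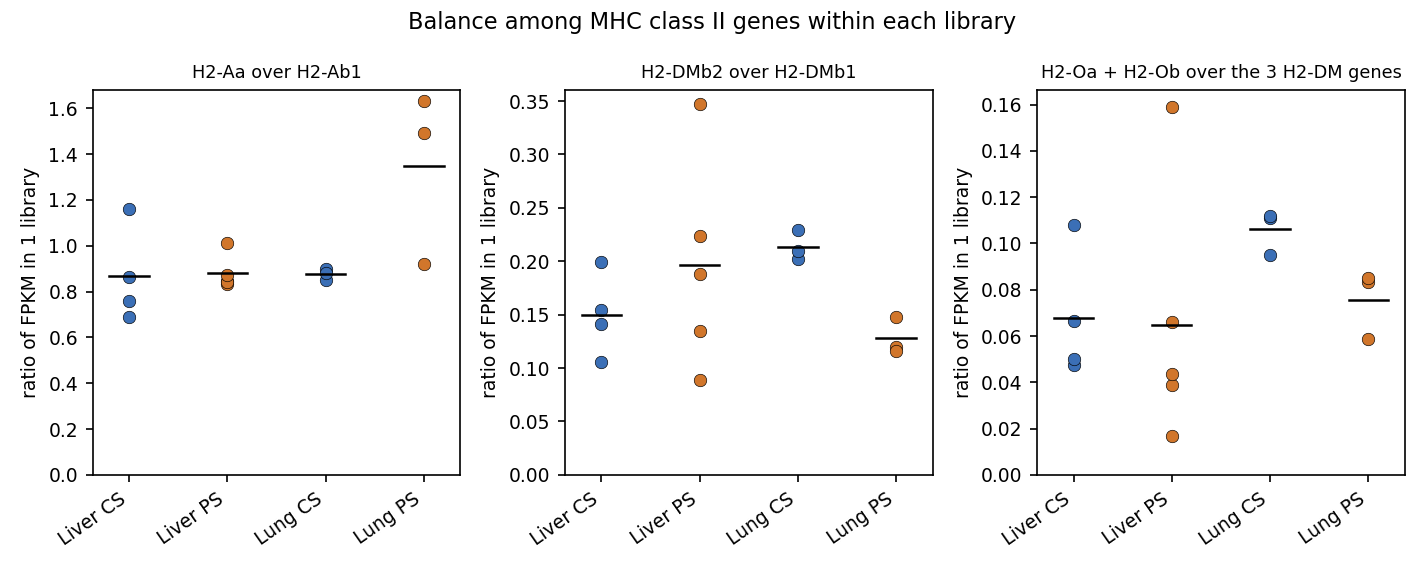
Ratios of FPKM within each library (points, with the group mean as a bar) for H2-Aa over H2-Ab1, H2-DMb2 over H2-DMb1 and the O genes over the DM genes, CS in blue and PS in orange. In the lung the PS libraries lie above the CS libraries in the first panel and below them in the others, whereas the livers overlap in all 3. The ratios were chosen after the values were seen, and 36.1% of single genes had no overlap between the lung groups.

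Markers of cells that carry class II were read beside these values. In the lung, 11 of 13 B cell markers had estimates below 0, with a median of -0.50, and 6 of them (Cd79b, Cr2, Cxcr5, Fcmr, Ms4a1 and Spib) passed the unadjusted threshold, as 30.1% of all genes did. Cxcr5, the follicle-homing receptor of B cells, also fell past the adjusted one, by 1.53 on the log2 scale (SE 0.31, adjusted p = 0.0301 in edgeR), 1 of 13 against 9.22% of all genes. Their summed FPKM was 133.9, 75.8 and 83.9 in CS lungs and 78.6, 80.4 and 56.4 in PS lungs, so CS replicate 1 was again the highest. H2-Eb2, a second E beta gene, differed by -1.15 in the lung (SE 0.46, adjusted p = 0.131 in edgeR). H2-O is known from B cells, and the part of B cells in the values of H2-Oa, H2-Ob, H2-DMb2 and Ciita was not tested.

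Macrophage markers showed no shared direction in the lung, where 6 of the 9 testable markers of the Kupffer cell and macrophage list had estimates above 0. C1qa (0.45) and Csf1r (0.42) were higher past the unadjusted threshold, and 1 of the 9 passed the adjusted one, where 9.22% of all genes did. This was Adgre1, which encodes the macrophage antigen F4/80 and fell by 0.81 on the log2 scale (SE 0.21, adjusted p = 0.0448 in edgeR). Plet1, a marker of alveolar macrophages, fell by 0.70 (SE 0.16, adjusted p = 0.037 in edgeR). Of the 9 alveolar macrophage markers 6 had estimates above 0, and Siglecf and Mrc1 were higher past the unadjusted threshold, both at 0.68 (adjusted p = 0.142 and 0.133 in edgeR). With the GC trend removed the adjusted p was 0.0651 for Adgre1 and 0.0558 for Plet1, no longer under 0.05, against 0.0304 for Cxcr5. With a lung left out the adjusted p of Adgre1, Plet1 and Cxcr5 ran up to 0.145 in edgeR. Dendritic cell markers had a median of 0.11 (8 of 12 above 0). Of these, 0 passed the adjusted threshold in edgeR, and past the unadjusted one Itgax (0.56), Clec9a (0.43) and Zbtb46 (0.42) were higher and Bcl11a (-0.94) was lower. The summed FPKM of 10 alveolar type II markers, most of it surfactant gene Sftpc, was 17556.1, 16419.1 and 16782.7 in CS lungs and 30680.2, 30604.7 and 18762.2 in PS lungs. Yet 7 of the 10 had estimates below 0, and past the unadjusted threshold Abca3 (-1.0), Lyz1 (-0.63) and Slc34a2 (-0.57) were lower and Sftpc (0.82) and Napsa (0.50) higher. PS replicates 1 and 2 were the highest lungs for this sum and for H2-Aa. They were also the highest for the summed dendritic cell, T cell and alveolar macrophage markers and for the summed Kupffer cell and macrophage markers. For the summed B cell and pan-leukocyte markers CS replicate 1 was the highest. The part of any of these cells in the H2-Aa values was not tested. In the liver, 12 of 12 markers of Kupffer cells and other macrophages had estimates below 0, with a median of -0.69. Clec4f, a Kupffer cell lectin, differed by -0.74 (SE 0.22, adjusted p = 0.355 in edgeR), C1qa by -0.76 (adjusted p = 0.605 in edgeR) and Csf1r by -0.65 (adjusted p = 0.657 in edgeR). Their summed FPKM was 176.6 to 261.3 in CS and 62.4 to 216.0 in PS livers. PS replicates 1 to 4 had 100.3, 153.4, 62.4 and 151.9, each below every CS liver, and PS replicate 5 had 216.0. PS replicate 4 was the PS liver with the most class II RNA. T cell markers were below 0 for 9 of 9 in the liver, with a median of -0.30, and 13 of 13 B cell markers were too low there to test. The part of these cells in the liver values was not tested.

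**Figure D5:**
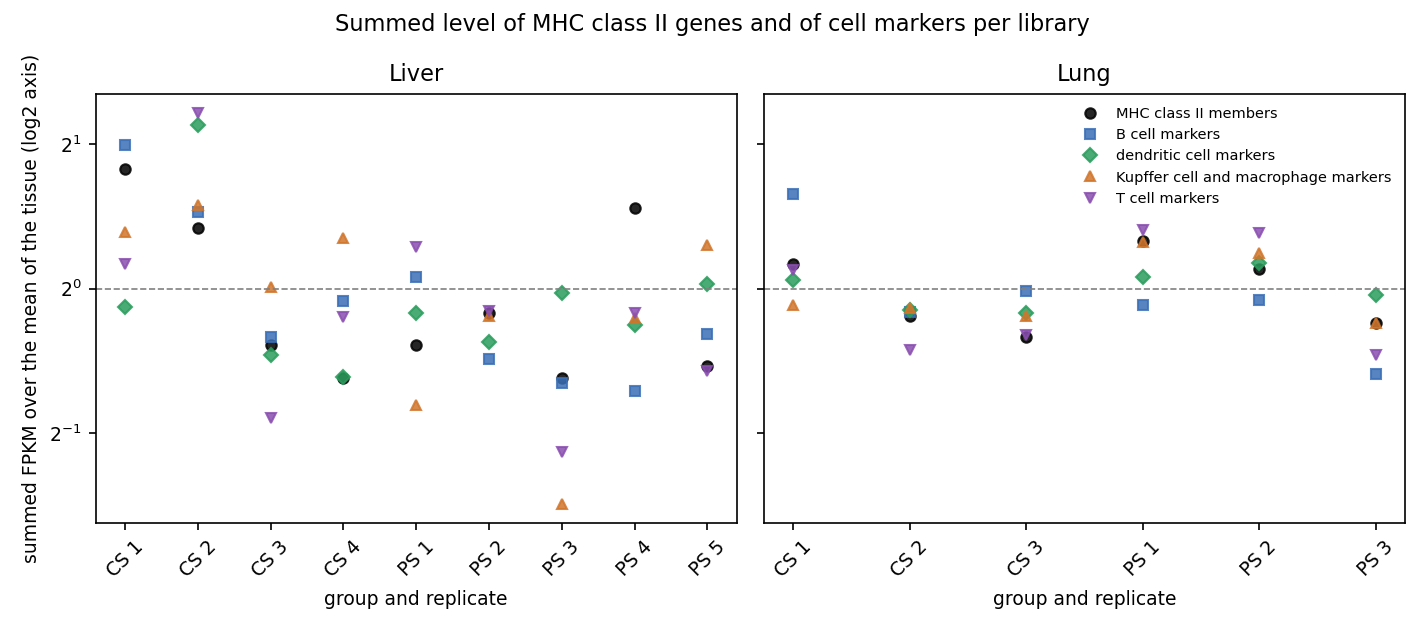
Summed FPKM of the 10 class II genes (black) and of markers of 4 cell types in each library, divided by the mean of the tissue (log2 axis). In the liver the class II sum is high in CS replicates 1 and 2 and in PS replicate 4, and in the lung the B cell sum is highest in CS replicate 1.

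The diet effect was set against the tissue in a single model over all 15 libraries. The difference of the log2 fold change, lung minus liver, was above 0 for 8 of 10 genes with a median of 0.50 against 0.00 over all genes. Of these, H2-Oa (-1.14) and H2-Ob had 0 to 7 and 1 to 38 counts per liver and entered through the lungs. Among the other 8 genes 7 were above 0, with a median of 0.50, and 1 passed the unadjusted threshold. Over the 10 genes the median was 0.14 without liver CS replicate 1, 0.34 without lung PS replicate 1 and 0.73 without liver PS replicate 4. None of the 10 passed an adjusted p under 0.05, as 0.0226% of 17696 genes did, and 2 passed an unadjusted p at most 0.05, as 10.9% of genes did. H2-DMa differed by 1.04 (SE 0.45, adjusted p = 0.425 in edgeR) and H2-Ob by 1.74 (SE 0.79, adjusted p = 0.447 in edgeR). The H2-Ob value was 0.97 without liver CS replicate 2. Among the 12 libraries of the 6 mice with both tissues, with mouse as a block, the median was 1.03 and 5 genes passed the unadjusted threshold (H2-Aa, H2-Eb1, Cd74, H2-DMa and H2-DMb1, with log2 differences of 0.95 to 1.34), each at an adjusted p of 0.872 in edgeR, where 5.56% of 17605 genes passed the unadjusted one. The same 12 libraries without mouse in the fit gave a median of 1.14 and 6 genes (9.02% of all genes), so the higher median was there without the block too. These libraries leave out liver CS replicate 4 and liver PS replicates 2 and 4.

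Of 10 genes for class II processing and turnover, 2 passed the adjusted threshold in the lung, where 9.22% of all genes did. Ifi30, the lysosomal thiol reductase GILT, rose in the lung by 0.67 on the log2 scale (SE 0.14, adjusted p = 0.0326 in edgeR), from an FPKM of 53.2 ± 3.84 to 85 ± 10.3 (SD, n = 3). March8, a ubiquitin ligase of a family that removes class II and other membrane proteins from the surface, fell by 0.50 (SE 0.12, adjusted p = 0.0408 in edgeR), from 11.3 ± 0.416 to 7.96 ± 0.191. The list's median was -0.06. With the GC trend removed the adjusted p was 0.0419 for Ifi30 and 0.0697 for March8. With a lung left out it ran from 0.019 to 0.136 for Ifi30 and from 0.0301 to 0.136 for March8, and it was above 0.05 for both without any of the CS lungs and without PS replicate 2. In the liver 2 of the 10 passed the unadjusted threshold, as 7.55% of all genes did. Cd83, which stabilises class II at the surface, differed by -1.44 (SE 0.53, adjusted p = 0.528 in edgeR) and by -0.83 without CS replicate 2, no longer past the unadjusted threshold, and the endosomal protease gene Lgmn by -0.57 (SE 0.24, adjusted p = 0.614 in edgeR).

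Of 12 transcription factors of class II genes, 0 passed the adjusted threshold in either tissue in edgeR, where 9.22% of all genes did in the lung and 0.00758% in the liver. At the unadjusted threshold (30.1% and 7.55% of all genes) 2 passed in the lung, Rfxank at 0.50 and Creb1 at -0.36, and 1 in the liver. There Nfyb, a subunit of the Y box factor, was 5.06 ± 0.403 (SD, n = 5) in PS against 3.60 ± 0.235 (n = 4) in CS mice, a difference of 0.50 on the log2 scale (adjusted p = 0.361 in edgeR, and 0.0446 in DESeq2's Wald test), and it differed by -0.24 in the lung (adjusted p = 0.254 in edgeR). The list's median was -0.02 in the liver and 0.23 in the lung. The 6 costimulators and class II ligands had 6 of 6 estimates above 0 in the lung (median 0.35) and 5 of 5 below 0 in the liver (median -0.52), with 0 past the adjusted threshold in either and 1 (Icosl) and 0 past the unadjusted one in edgeR, against the same shares of all genes.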

How the data were processed

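RNA-seq libraries of 15 samples (liver, 4 CS and 5 PS mice; lung, 3 CS and 3 PS mice) were poly-A selected and read as 150-base pairs. Per the labels and the paper, the authors aligned reads to mm10 with HISAT2 2.0.5 and counted them per gene with featureCounts 1.5.0-p3 (DESeq2 1.20.0 is also named). The deposited counts carry no normalization, and the deposited FPKM values are counts scaled by gene length and library.

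Counts were tested here with edgeR 4.0.16 (R 4.3.3; TMM, filterByExpr, robust quasi-likelihood test, Benjamini-Hochberg over all genes tested), per tissue for diet, and over all libraries for tissue and for the difference of the diet effects. Intervals are 95% intervals of the fitted log2 fold change. The script was tested on simulated data. These were drawn with a single spread, smaller than that fitted to the livers and to all libraries together, so they say little of those tests. Gene symbols turned into dates (27) were restored by gene identifier. Replicates of a group were all further apart than sampling noise.

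Alternatives were DESeq2 1.42.0, its size factors, other filters (none, or 10 counts in every library), limma 3.58.1 on log2(FPKM + 1) and log2(FPKM + 0.1), replicate and mouse blocks, and each library left out. Removal of the GC trend (loess, span 0.3), library totals without TMM and the 12 libraries without the mouse term were chosen after seeing the data. Mice pair the tissues, since 6 animals gave both. The deviations of the 2 tissues of a mouse correlated at -0.12 to 0.24.

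The genes and lists were chosen with earlier results of these data known. All 10 members are named. Of the other lists, the text names at most 4 genes per tissue (3 for markers) with an adjusted p under 0.05 in the lung or an unadjusted p at most 0.05 in the liver. Of the class II region it names the genes past the unadjusted threshold (Tap2 and Brd2). Beyond that rule it names H2-Eb2, H2-Ea-ps, Creb1, Rfxank, Icosl, Siglecf, Mrc1, C1qa and Csf1r in the lung, and Marco, Mrc1 and Siglecf in the liver. It also names the dendritic cell markers, the alveolar type II markers in the lung and the B cell markers. All these were chosen after their values were seen. Likeness was the root mean square difference of centred log2 CPM.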

Additional observations from a re-analysis of the deposited data

Results flagged for a closer look

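4 values in the liver of the PS group lay far from the rest of their group of 5. H2-Aa reached an FPKM of 25.6, H2-Ab1 30.5 and H2-DMb1 3.03 in PS replicate 4, while the next highest PS livers had 14.3, 17.2 and 1.76. H2-DMb2 reached 0.549 in PS replicate 1, on 12 counts, with 0.313 next. Chance marks about 1 group in 20 in this way, and the first 3 values come from a single animal.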

How the results depend on the processing

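No class II gene passed an adjusted p under 0.05 for diet in the liver, in the lung or for the difference between the tissues under any alternative run. At the unadjusted threshold the liver count was 0, and it was 1 with DESeq2, 2 without a filter and 0 to 3 with each library left out. The lung count was 0, and it was 1 without a filter, 1 with library totals, 1 with the replicate block (H2-DMb2) and 0 to 2 with each library left out. The difference between the tissues gave 2, and 0 to 4 with each library left out, 5 with the mouse block and 6 in its 12 libraries without mouse. The replicate block in the liver gave 0 genes and a median of -0.29. Replicate numbers mark no shared litter or day, and the correlations of same-numbered libraries were -0.44 to -0.02 in the liver and -0.01 to 0.08 in the lung. Of the single-gene estimates, 139 of the liver's, 150 of the lung's and 207 of the differences between the tissues kept their direction and side. The exceptions, whose cause was not tested, were H2-Eb1 (0.05) and Cd74 (0.01) in the liver without CS replicate 1 (lowest values with a library left out -0.46 and -0.60), and among the differences between the tissues H2-Ab1 (-0.25, -0.01 and -0.01 without liver CS replicate 1, liver PS replicate 5 and lung PS replicate 1, at most 0.40), H2-DMb2 (0.08, 0.08, 0.03 and 0.04 without liver CS replicate 3, liver PS replicate 1, lung CS replicate 1 and lung PS replicate 3, at least -0.34) and Ciita (-0.24 and -0.02 without liver CS replicate 1 and liver PS replicate 1, at most 0.40). For lung against liver, 10 genes were called in each alternative except 6 with at least 10 counts in every library, a filter that leaves 6 to test. Over all genes, adjusted calls for diet were 1 in the liver (163 with DESeq2, 26 without a filter, 6 and 4 with limma, 2 with at least 10 counts, 0 with the replicate block, library totals or the GC trend removed, 0 to 65 with a library left out), 1542 in the lung (3090 with DESeq2, 1085 with limma, 0 to 2949 with a library left out) and 4 for the difference (228 with DESeq2, 10 without a filter, 0 with the mouse block and 0 in its 12 libraries without mouse, 0 to 12 with a library left out). Unadjusted calls over all genes went from 996 to 487 in the liver with the replicate block and from 1935 to 979 for the difference with the mouse block, while the same 12 libraries without mouse gave 1588. Depth limits the liver values of H2-Oa, H2-Ob, H2-DMb2 and Ciita, where most libraries held under 20 counts.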

Other observations

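The interval of chromosome 17 from H2-Oa to H2-Eb1 also holds 10 other genes, among them those of the class I pathway. Of these, 5 could be tested in the liver and 6 in the lung, and 0 passed an adjusted p under 0.05 in edgeR, with 1 at the unadjusted threshold in each tissue, as 7.55% of all genes in the liver and 30.1% in the lung. In the lung this was Tap2, a subunit of the peptide transporter, at 0.69 on the log2 scale (SE 0.19, adjusted p = 0.0516 in edgeR). In the liver it was Brd2, at -0.50 (SE 0.23, adjusted p = 0.66 in edgeR). With the GC trend removed Brd2 stood at -0.45, no longer past the threshold (adjusted p = 0.762 in edgeR). Of 18 class I presentation genes, 1 passed the adjusted threshold in the lung, where 9.22% of all genes did. This gene, Nlrc5, the transactivator of class I genes and a relative of CIITA, rose in the lung by 0.78 on the log2 scale (SE 0.18, adjusted p = 0.0395 in edgeR), from an FPKM of 3.53 ± 0.718 to 6.08 ± 0.843 (SD, n = 3), while its liver value was -0.10 (adjusted p = 0.981 in edgeR). With one lung left out its adjusted p was 0.0205 to 0.142. The list's median in the lung was 0.29 with 14 of 18 above 0. B2m, the class I light chain, differed by 0.69 in the liver (adjusted p = 0.622 in edgeR).

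Further marker genes past the unadjusted threshold in the liver, with their cause not tested, were Cidec at -1.92, Slc34a2 at -1.64, Laptm5 at -1.03 and Cd52 at -0.94 (adjusted p from 0.29 to 0.638 in edgeR, with Cidec at 0.016 in DESeq2's Wald test), of which Laptm5 and Cd52 are expressed across leukocytes. Cd52 stood at -0.31 without CS replicate 2 and Slc34a2 at -2.63 without PS replicate 2. T cell markers in the lung had a median of 0.13 (9 of 12 above 0), alveolar type II markers -0.07 (3 of 10 above 0, and 2 higher and 3 lower past the unadjusted threshold, as 30.1% of all genes were), pan-leukocyte markers -0.09 (2 of 6), and alveolar macrophage markers 0.07 (6 of 9). In the liver the medians were -0.32 for 6 dendritic cell markers, -0.62 for 5 alveolar macrophage markers, -0.29 for 5 alveolar type II markers and -0.39 for 6 pan-leukocyte markers.

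The genes whose pattern over the libraries was most like the mean of H2-Aa, H2-Ab1, H2-Eb1 and Cd74 were Nop58, Nsun5, Itgb7, Ralgds and Nelfa over 9 livers, with a root mean square difference of 0.265 to 0.329 on the log2 scale against a median of 0.644 over 10266 genes. Over 6 lungs they were Srp9, Klhl6, Commd8, Tmf1 and Lemd3, with 0.042 to 0.0643 against a median of 0.35 over 13150 genes. The 4 genes themselves lay at 0.101 to 0.154 in the liver and 0.0793 to 0.24 in the lung, so in the lung the other genes followed the mean more closely than its own members did.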
